A study of Mus musculus with 14 samples.

Results

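The genes described here are 33 mouse genes of the peroxisome and of ether lipid synthesis, chosen by symbol, and each one had 1 row among the 46983 genes of both deposited tables. RNA-seq was made from the corpus callosum and from oligodendrocytes grown in culture, with 1 table for each system. The callosum came from 8-week-old mice of an FvB/C57BL6 hybrid strain, all carrying the Plp-CreERT2 transgene, a tamoxifen-inducible recombinase under the promoter of a myelin gene, and all given tamoxifen 4 days before collection. The 4 mice labelled Qk-KO were QKLoxP/LoxP and the 4 labelled WT were QKLoxP/+, so the controls also carried a floxed Qk copy and had received the drug. The cultures, 3 labelled Qk-KO and 3 labelled WT, were neural stem cells of the same hybrid strain at passages 7, 12 and 13, differentiated to oligodendrocytes with IGF-1 at 100 ng/ml and triiodothyronine (T3) at 50 ng/ml. The labels give no promoter or recombinase for the cultures. Every culture labelled Qk-KO carries 40HT in its description and every culture labelled WT carries EtOH, so the effects of genotype and of that treatment cannot be told apart. Each passage gave 1 library of each label, and the 2 libraries of a passage also share a code in their descriptions. The deposited fit holds 1 level per genotype and has no term for that pairing. The labels do not say whether the passages are separate cell lines, so the p-values measure the spread between these samples, which may be technical.

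Peroxisomes are organelles that shorten very long and branched fatty acids, break down hydrogen peroxide and make the first intermediates of ether lipids. Peroxins, the products of the Pex genes, build the organelle: they insert its membrane proteins, carry enzymes through the membrane and control its division. Ether lipids with a vinyl bond, the plasmalogens, are abundant in myelin, and inherited peroxisomal defects damage white matter.

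The total of fitted counts ran from 15048646 to 27666519 in the callosum and from 38325833 to 48912999 in culture. The library columns hold a model's fitted means, so every library of a genotype has the same share of its total in a gene, and they carry no replicate spread. Fitted counts of Abcd3 illustrate this: in culture they were 9274, 7267 and 7911 in WT replicates 1 to 3 and 2966, 2734 and 2546 in the replicates labelled Qk-KO. Each set is 1 level, 189.6 and 61.2 CPM (fitted counts scaled to a common library total), multiplied by each library's own total. Overlap between single libraries of the groups can therefore not be read from them, and levels are given below as 1 CPM value per genotype, with the error from the authors' deposited table. Qk RNA was not lower in libraries labelled Qk-KO, with a log2 change of 0.32 ± 0.12 (SE) in callosum and 0.66 ± 0.14 in culture in the authors' deposited table. These values are for the whole gene and do not show the deleted part, so they do not check the deletion.

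In culture, 18 of the 33 were lower in libraries labelled Qk-KO and 0 were higher, at an adjusted p under 0.05 over all tested genes (DESeq2's Wald test, authors' deposited table). Among all 17503 genes tested in culture, 15.2% fell and 13.3% rose by the same rule (28.6% in all). At an unadjusted p under 0.05 there were 20 of the 33 in culture, against 37.4% of all tested genes. In callosum none of the 33 passed, where 2.32% of 19935 tested genes did, 2.09% as higher and 0.231% as lower. The median log2 change of the 33 was -0.52 in culture, against 0.01 over all tested genes, and -0.05 in callosum, against -0.01. By role, all 3 ABC transporters, both alpha-oxidation enzymes and 6 of 8 beta-oxidation genes fell in culture, and 0 of 3 enzymes of ether lipid synthesis did. Of the 20 members that are not peroxins 14 fell, and of the 13 peroxins 4 fell. All 33 had enough reads for an adjusted p in both tables.

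**Figure D1:**
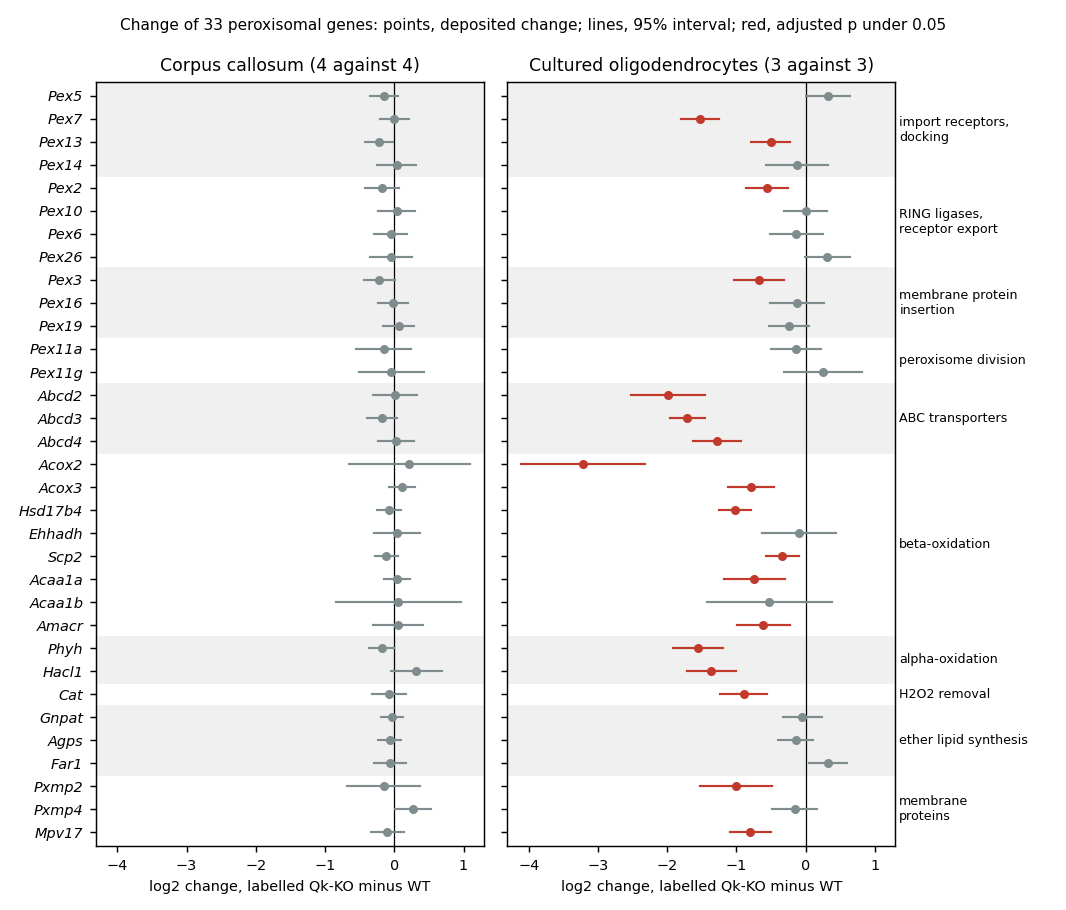
Log2 change (labelled Qk-KO minus WT, x axis) of each of the 33 genes (rows, grouped by role) in callosum on the left and culture on the right. Points are the deposited changes, lines are 95% intervals from the deposited standard errors, and red marks an adjusted p under 0.05: 18 genes in culture, all to the left of 0, and none in callosum.

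All 3 ABC transporters of the D family fell in culture. Abcd3 encodes the abundant peroxisomal membrane protein PMP70, which imports branched fatty acids and bile acid intermediates. It went from 189.6 to 61.2 CPM, a 3.27-fold fall (log2 change -1.71 ± 0.13, adjusted p = 1.13e-37, authors' deposited table). Abcd2, which imports very long and polyunsaturated fatty acids, went from 56.3 to 14.9 CPM, a 3.97-fold fall (-1.99 ± 0.28, adjusted p = 1.67e-11, authors' deposited table). Abcd4 belongs to the same family but serves cobalamin export from lysosomes. It went from 13.8 to 5.98 CPM (-1.29 ± 0.18, adjusted p = 1.56e-11, authors' deposited table). The 95% intervals of these 3 changes all lay below -0.9 log2 units, with upper ends at -1.45, -1.46 and -0.94 for Abcd2, Abcd3 and Abcd4.

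The enzymes of alpha-oxidation, which removes 1 carbon from phytanic acid and similar branched fatty acids, both fell in culture. Phyh, the hydroxylase lost in Refsum disease, went from 95.4 to 34.3 CPM (-1.55 ± 0.18, adjusted p = 2.34e-15, authors' deposited table). Hacl1, the lyase that splits the hydroxylated product, went from 24.4 to 10.0 CPM (-1.36 ± 0.18, adjusted p = 9.32e-13, authors' deposited table). In GENCODE M21, 31.1% of the exonic bases of Hacl1 also belong to the gene model Gm49387 on the same strand, so its value is uncertain where the counting could not place a read.

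Of the 8 genes of peroxisomal beta-oxidation, 6 fell and 2 did not pass in culture. Hsd17b4, the bifunctional enzyme for very long and branched substrates, went from 215 to 112 CPM (-1.02 ± 0.12, adjusted p = 8.4e-17, authors' deposited table). Acox2, an oxidase of branched acyl-CoA and bile acid intermediates, had the largest fitted fall of the 33, from 1.46 to 0.166 CPM (-3.21 ± 0.46, adjusted p = 6.57e-11, authors' deposited table). It was among the genes with the fewest reads, with a mean normalized count of 38.4, and its 95% interval ran from -4.11 to -2.32. Acox3, a second branched-chain oxidase, changed by -0.79 ± 0.17 on the log2 scale in the authors' deposited table (adjusted p = 4.73e-05). Acaa1a, the thiolase of straight-chain substrates, fell by 0.74 ± 0.23 (adjusted p = 0.00533, authors' deposited table). Amacr, a racemase that prepares branched acids for oxidation, fell by 0.61 ± 0.19 (adjusted p = 0.00799, authors' deposited table).

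Scp2, which encodes sterol carrier protein and the branched-chain thiolase, had the smallest of these falls, from 177 to 147 CPM (-0.34 ± 0.12, adjusted p = 0.0218, authors' deposited table). With scaling by library size alone it no longer passed (adjusted p = 0.0874), and 29.7% of its 50-base stretches also occur in other genes' transcripts, chiefly the pseudogene Scp2-ps2. Ehhadh, the bifunctional enzyme of the straight-chain route, did not pass (2.57 and 2.54 CPM, log2 change -0.09 ± 0.27, authors' deposited table). Acaa1b did not pass either (-0.52 ± 0.46, authors' deposited table), at a mean normalized count of 35.4. Acaa1a and Acaa1b are close copies, with 12.9% and 30.5% of their 50-base stretches also found in other genes, and reads split between them leave either value uncertain.

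Cat encodes catalase, which breaks down the hydrogen peroxide that the oxidases release. It was the most abundant of the 33 in culture and went from 493 to 279 CPM (-0.90 ± 0.17, adjusted p = 3.61e-06, authors' deposited table). The 3 remaining membrane proteins were mixed. Mpv17, a small channel-like protein of the inner mitochondrial membrane that has also been placed in peroxisomes, fell from 73.4 to 44.5 CPM (-0.80 ± 0.15, adjusted p = 1.5e-06, authors' deposited table). Pxmp2, a pore of the peroxisomal membrane, fell from 8.87 to 4.66 CPM (-1.0 ± 0.27, adjusted p = 0.00108, authors' deposited table). Pxmp4 stood at 24.8 and 23.4 CPM and did not pass (-0.16 ± 0.17, authors' deposited table). The gene model Gm29609 shares 14.4% of the exonic bases of Mpv17 on the same strand.

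Among the 13 peroxins, the import receptor Pex7 had the largest fitted fall. Pex7 carries the enzymes that bear an amino-terminal targeting signal, among them the products of Phyh, Acaa1a and Agps, and its loss causes rhizomelic chondrodysplasia punctata. It went from 31.8 to 11.7 CPM, a 2.88-fold fall (-1.52 ± 0.14, adjusted p = 3.76e-25, authors' deposited table). Of these 3 cargo genes, Phyh and Acaa1a fell and Agps did not pass. Pex5, the receptor for the more common carboxy-terminal signal, moved the other way without passing (28.4 to 37.5 CPM, 0.32 ± 0.16, adjusted p = 0.128, authors' deposited table). With scaling by library size alone the rise of Pex5 passed (adjusted p = 0.0461).

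The other 3 peroxins that fell changed less. Pex3, the membrane anchor that docks the carrier Pex19, changed by -0.67 ± 0.18 on the log2 scale in the authors' deposited table (adjusted p = 0.00154). Pex2, a RING ubiquitin ligase that recycles the import receptors, fell by 0.56 ± 0.15 (adjusted p = 0.00179, authors' deposited table). Pex13, a component of the docking complex and pore, fell by 0.51 ± 0.15 (adjusted p = 0.00299, authors' deposited table). Their partners did not pass: Pex10 (-0.00 ± 0.16) forms the ligase with Pex2, Pex14 (-0.12 ± 0.23) docks receptors with Pex13, and Pex16 (-0.12 ± 0.20) and Pex19 (-0.24 ± 0.15) act with Pex3, all in the authors' deposited table. Whether the changes of partners differ from each other was not tested. The receptor export ATPase Pex6 (-0.14 ± 0.20) and its membrane anchor Pex26 (0.31 ± 0.16) did not pass, nor did the division factors Pex11a (-0.15 ± 0.18) and Pex11g (0.25 ± 0.29) in the authors' deposited table. In GENCODE M21, 28.3% of the exonic bases of Pex14 and 41.1% of those of Pex11g overlap genes on the opposite strand, and the strand setting of the counting is not given in the sources used here.

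None of the 3 enzymes that start ether lipid synthesis passed in culture. Gnpat, the acyltransferase of the first step, stood at 50.0 and 51.1 CPM (log2 change -0.05 ± 0.14, authors' deposited table), with a 95% interval from -0.33 to 0.23. The sign of the change follows the authors' size factors, which differ from CPM by 0.08 log2 units in culture. Agps, which exchanges the acyl chain for an alkyl chain, stood at 59.5 and 56.7 CPM (-0.15 ± 0.13, authors' deposited table), with an interval from -0.40 to 0.10. Far1, the reductase that supplies the fatty alcohol, went from 50.4 to 66.5 CPM (0.32 ± 0.14, adjusted p = 0.0742, authors' deposited table), with an interval from 0.04 to 0.60. With scaling by library size alone Far1 passed as higher (adjusted p = 0.0201). A fall as large as that of Pex7, Phyh or Abcd3 lies outside all 3 intervals.

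**Figure D2:**
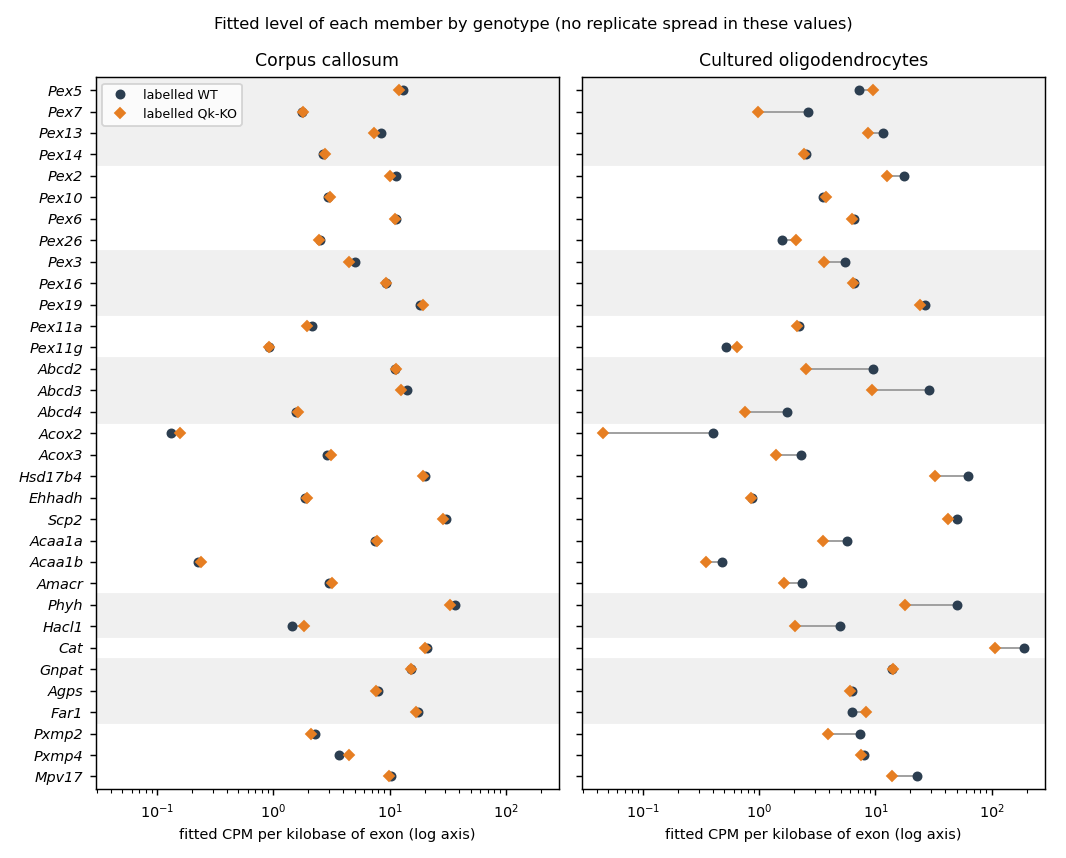
Fitted CPM per kilobase of exon (x axis, log scale) of each gene in libraries labelled WT (dark circles) and Qk-KO (orange diamonds), for callosum on the left and culture on the right. In callosum the symbols of most genes lie on each other, and in culture Cat is the highest at 189 in WT and 107 in libraries labelled Qk-KO, with wide gaps for Acox2, Abcd2, Abcd3, Phyh and Pex7.

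Levels between genes were compared per kilobase of exon. In cultures labelled WT, Cat stood at 189 fitted CPM per kilobase, followed by Hsd17b4 at 63.1, Scp2 at 50.8 and Phyh at 50.4. Abcd3 stood at 28.8, Pex19, the carrier of membrane proteins, was the highest peroxin at 26.9, and the lowest members were Acox2 at 0.395 and Acaa1b at 0.475. The median over tested genes was 2.73 in culture. In WT callosum Phyh was highest at 36.7 fitted CPM per kilobase, with Scp2 at 30.8, Cat at 21.0, Hsd17b4 at 20.3 and Pex19 at 18.2, against a median of 3.29. The ether lipid enzymes Far1, Gnpat and Agps stood at 17.5, 15.3 and 7.92 per kilobase there. No test was made between genes, since these fitted values carry no error.

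Markers of cell types also changed in culture, in both directions, where 15.2% of all tested genes fell and 13.3% rose. Of 18 astrocyte markers 14 fell and none rose, and their summed level went from 15432 CPM in cultures labelled WT to 4742 in those labelled Qk-KO, with Gfap, Mlc1 and Gja1 among those that fell. Of 11 tested neuron markers 9 rose (summed level of the list 772 and 1825 CPM), and of 8 cell cycle markers 6 rose (117 and 192 CPM). Of 12 oligodendrocyte markers 2 rose and 2 fell (3247 and 2605 CPM), and of 8 precursor markers 2 rose and 2 fell (3326 and 3652 CPM). The values describe whole cultures, which held RNA of astrocyte as well as oligodendrocyte markers. The part of these cell types in the falls of the 33 genes was not tested, and in bulk RNA fewer cells of a type and less RNA per cell cannot be told apart. Microglial RNA was scarce: the summed level of 12 markers was 20.8 and 12.4 CPM, and 4 of them (Itgam, Trem2, C1qa and C1qb) had no reads.

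The calls in culture rest on a Wald score read against a normal distribution. With a Student distribution of 4 residual degrees of freedom in its place, 0 of the 33 and 0 of all 17503 genes passed. Even Mlc1, with an adjusted p of 2.05e-86 by DESeq2's Wald test (authors' deposited table), did not pass. The Student reference therefore does not set the 33 apart from other genes.

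In whole callosum tissue the RNA of the 33 genes differed little between the genotypes. Their log2 changes ran from -0.22 for Pex13 to 0.32 for Hacl1, with 19 below 0 and 14 above (18 below with scaling by library size alone), and the smallest adjusted p was 0.555 (DESeq2, authors' deposited table). At an unadjusted p under 0.05 there were 3 of 33, against 8.08% of all tested genes. These were Pex13 (-0.22 ± 0.11), Phyh (-0.18 ± 0.09) and Pxmp4 (0.27 ± 0.14) in the authors' deposited table. For 26 of the 33 the 95% interval of the change lay within 0.5 log2 units of 0 on both sides, and for 32 within 1. The exception to the wider bound was Acox2, at 0.491 and 0.580 CPM, with an interval from -0.66 to 1.10.

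None of the 9 genes that fell at least 2-fold in culture passed in callosum. Only 2.32% of all tested genes passed there, 0.231% as lower, so 0 of 9 is near that share. The precision in callosum differed between the 9 genes. Abcd3 stood at 92.4 CPM in WT and 83.0 in libraries labelled Qk-KO, with a 95% interval of the change from -0.40 to 0.04. Abcd2 stood at 65.7 and 67.3 CPM (-0.30 to 0.33), Abcd4 at 12.5 and 13.0 (-0.23 to 0.29), Pex7 at 21.2 and 21.5 (-0.21 to 0.21), and Hsd17b4 at 69.1 and 66.6 (-0.25 to 0.09). Phyh stood at 69.4 and 62.2 CPM, with an interval from -0.36 to -0.00. Hacl1, with the highest change of the 33 in callosum, stood at 7.09 and 8.99 CPM (-0.05 to 0.69), opposite in sign to its fall in culture. The intervals were widest for Pxmp2 (2.74 and 2.50 CPM, -0.68 to 0.38) and for Acox2, given above. The ether lipid enzymes Gnpat (54.9 and 54.4 CPM), Agps (74.6 and 72.5) and Far1 (140.6 and 136.7) all had intervals within 0.30 log2 units of 0. The 12 microglia markers rose in 9 cases in the same tissue, with a summed level of 449.6 and 990 CPM. No choroid plexus marker of 5 passed, but their summed level was 1999 CPM in WT and 1160 in libraries labelled Qk-KO. Of 12 oligodendrocyte markers 4 rose (7631 and 8168 CPM), and of 8 precursor markers 1 rose (612 and 945 CPM). Of 18 astrocyte markers 2 rose (5674 and 6814 CPM for the list), opposite to the falls in culture: Gfap was 4.16-fold higher (adjusted p = 2.3e-24, DESeq2, authors' deposited table) and Aqp4 1.61-fold higher (adjusted p = 0.00592, authors' deposited table). Of 12 neuron markers 0 passed (7177 and 6731 CPM for the list). The values describe whole tissue and do not show the change within oligodendrocytes alone. The part of the marker shifts in the values of the 33 genes was not tested.

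The change in whole cultures differed from that in whole callosum tissue for 12 of the 33 genes, each with the lower change in culture. The 2 changes and their standard errors were compared with a z test, adjusted over the 16601 genes tested in both tables, and 11.7% of those genes differed in the same direction (21.5% in either). The largest differences were -3.43 ± 0.64 log2 units for Acox2 (adjusted p = 2.03e-06), -2.00 ± 0.32 for Abcd2 (adjusted p = 1.38e-08) and -1.68 ± 0.26 for Hacl1 (adjusted p = 3.53e-09). Abcd3 (-1.53 ± 0.17, adjusted p = 2.71e-17) and Pex7 (-1.53 ± 0.18, adjusted p = 8.7e-16) had the smallest p. Phyh, Abcd4, Hsd17b4, Acox3, Cat, Acaa1a and Mpv17 were the others. Of the 18 genes that fell in culture, Scp2, Pex13, Pex2, Pex3, Amacr and Pxmp2 were not shown to differ from callosum, with adjusted p between 0.0594 for Amacr and 0.307 for Scp2. Pex5 had a difference of 0.47 ± 0.19 in the opposite direction (adjusted p = 0.0624). The ether lipid enzymes had differences of -0.01 ± 0.16 for Gnpat, -0.08 ± 0.15 for Agps and 0.39 ± 0.18 for Far1 (adjusted p = 0.124). Across the 33 genes the changes in the 2 systems had a Pearson r of -0.21 and a Spearman rho of -0.02, as a description over genes that share the same libraries.

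**Figure D3:**
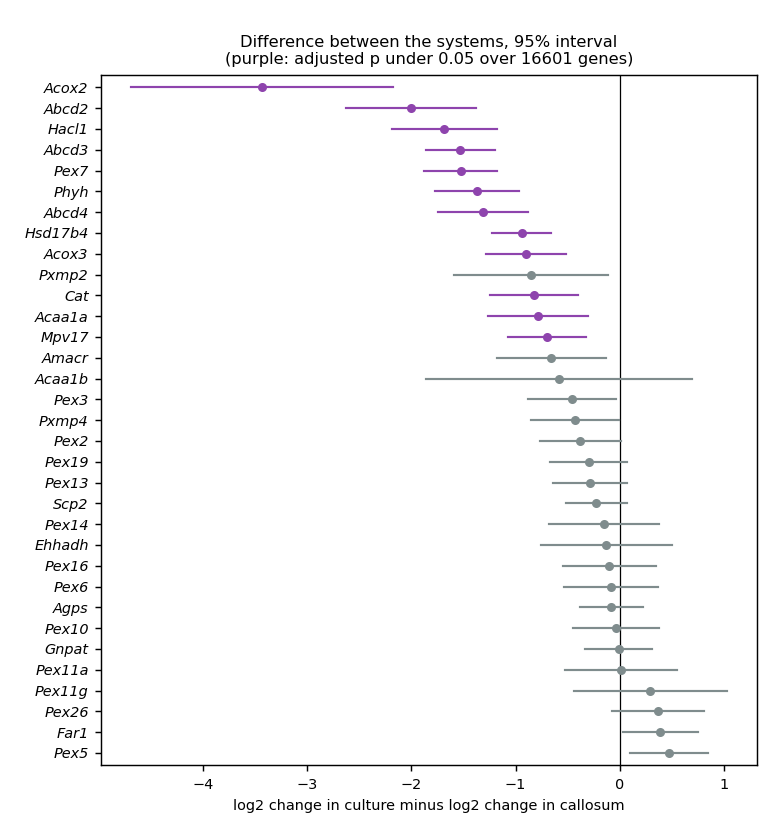
Log2 change in culture minus log2 change in callosum (x axis) for the 33 genes in order of size, with 95% intervals from the combined standard errors. Purple marks the 12 genes with an adjusted p under 0.05, from Acox2 at -3.43 to Mpv17 at -0.70.

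Other peroxisomal and ether lipid genes, none of them among the 33, were counted in the same way. In culture 21 of 46 tested genes fell and 1 rose (19 and 1 with scaling by library size alone), with a median log2 change of -0.39, and in callosum 0 of 49 passed. At an unadjusted p under 0.05 there were 6 of 49 in callosum, against 8.08% of all tested genes. At the adjusted threshold 2.32% of all tested genes passed in callosum, so 0 of 49 is near that share. In culture 15.2% of all tested genes fell and 13.3% rose. In fatty acid oxidation and transport 7 of 14 fell in culture. Eci2 and Crat, an isomerase and a carnitine acyltransferase, changed by -0.69 ± 0.13 and -0.54 ± 0.12 on the log2 scale, as the authors' deposited table gives them.

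Among matrix enzymes and proteases 8 of 15 fell in culture. Ddo, an oxidase of D-aspartate, fell by 2.12 ± 0.26, the epoxide hydrolase Ephx2 by 1.66 ± 0.22 and the dehydrogenase Dhrs4 by 1.02 ± 0.16 in the authors' deposited table. In the later steps of ether lipid and plasmalogen metabolism 3 of 8 fell. Chpt1, a choline phosphotransferase that makes phosphatidylcholine and its ether forms, went from 209 to 45.9 CPM (-2.26 ± 0.18, adjusted p = 1.19e-34, authors' deposited table). Agmo, which cleaves alkyl glycerols, fell by 1.36 ± 0.33 and Tmem86a, a lysoplasmalogenase, by 0.91 ± 0.19 in the authors' deposited table. Tmem189, the desaturase that makes the vinyl bond of plasmalogens, stood at 44.8 and 49.5 CPM and did not pass (0.07 ± 0.24, authors' deposited table). Selenoi, an ethanolamine phosphotransferase found by its identifier, did not pass either (0.21 ± 0.17, authors' deposited table).

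**Figure D4:**
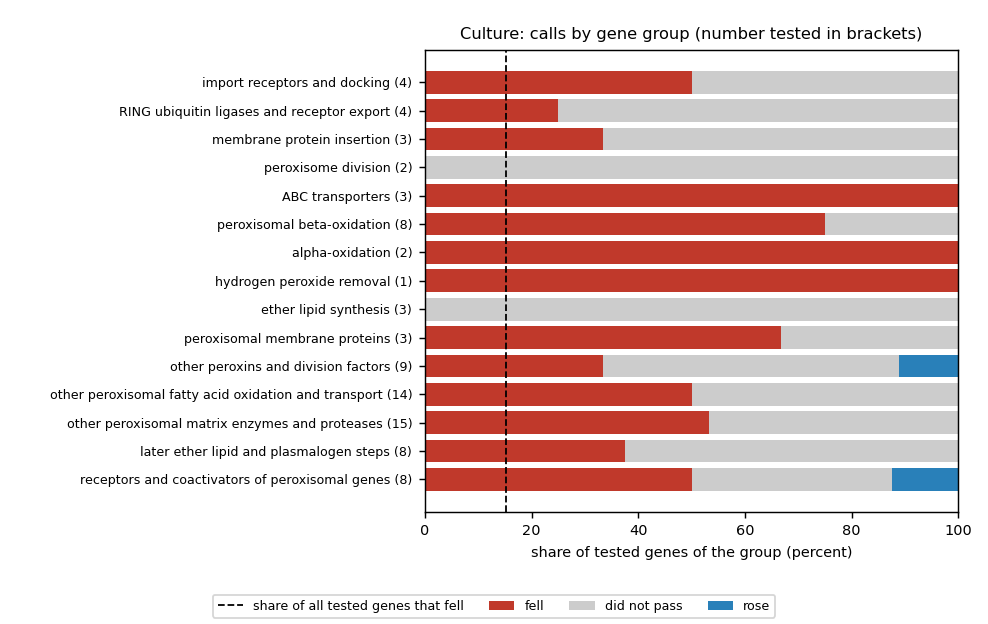
Share of tested genes (x axis, percent) that fell (red), did not pass (grey) or rose (blue) in culture at an adjusted p under 0.05, for the roles of the 33 genes and the further lists, with the number tested in brackets. The dashed line marks the 15.2% of all tested genes that fell: all members of the ABC transporter and alpha-oxidation groups are red, and none of the ether lipid synthesis or division groups.

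Promoter windows of RefSeq (GRCm38.p6, 250 bases before to 50 after a start) were at hand for 26 of the 33 genes, as 31 windows. They were searched on both strands for the response element of PPAR receptors, which is a pair of AGGTCA cores with any 1 base (N) between them, and for the single core AGGTCA, which the pair contains. No window of the 33 genes held the exact element (0.0396% of all 32851 windows did). With at most 2 mismatches, 2 of 31 windows matched (6.45%, against 3.86% of all), 1 of Cat and 1 of Acox2. The single core was in 4 of 31 windows (12.9%, against 16.3% of all), those of Cat, Phyh, Scp2 and Pex11g. The median GC content was 57.3% in the windows of the 33 genes and 52.7% in all. A match describes letters only, and no match says only that they are not in this window.

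The stretches below show the near matches of Cat and Acox2, with the match in capitals, beside the bases just upstream of the starts of Pex7 and Abcd3, which fell with no such match in these bases, and of Agps, which did not pass. Counted from 1 at the 5′ end of the element, the Cat match differs from it by G10A and T11A and lies at -204 to -192 from the start, in chr2:103485284-103485403 on the minus strand. The Acox2 match differs by T4A and C12G and lies 10 to 22 bases after the second listed start, in chr14:8258809-8258838 on the minus strand. The other stretches are chr10:19907675-19907794 (minus strand) for Pex7, chr3:121815303-121815422 (minus strand) for Abcd3 and chr2:75832057-75832176 (plus strand) for Agps, all on GRCm38 and printed 5′ to 3′.
Cat: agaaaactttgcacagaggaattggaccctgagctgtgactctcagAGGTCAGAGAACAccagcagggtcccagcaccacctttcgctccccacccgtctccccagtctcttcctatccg
Acox2: gctgtcccAGGACAGAGGTGAgtcaagagt
Pex7: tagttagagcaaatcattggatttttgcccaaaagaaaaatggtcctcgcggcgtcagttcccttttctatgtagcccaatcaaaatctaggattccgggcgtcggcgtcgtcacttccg
Abcd3: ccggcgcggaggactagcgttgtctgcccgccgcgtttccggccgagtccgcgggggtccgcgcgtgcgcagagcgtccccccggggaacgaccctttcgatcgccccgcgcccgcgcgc
Agps: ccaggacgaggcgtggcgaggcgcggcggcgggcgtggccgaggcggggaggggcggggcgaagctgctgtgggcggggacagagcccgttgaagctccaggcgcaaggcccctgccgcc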

How the data were processed

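The tables were 1 for callosum (8 libraries) and 1 for culture (6 libraries). Per the submitters' processing notes, the tools were DESeq2, featureCounts, TopHat2 2.0.14 and FastQC and the build was mm10. Their settings, strand and annotation: not given in the sources used here. The library columns the authors deposited hold log2 values of a model's fitted means plus 1, checked within 1e-06: libraries of a genotype differ by 1 constant factor at every gene. Per the file headers, the mean column is a normalized signal, that is counts over size factors. Log2 changes as deposited are WT over Qk-KO, and their sign was turned. The score that the authors deposited is the change over its standard error, and the deposited p-value columns hold its normal p-value and the Benjamini-Hochberg adjusted value, both recomputed within that tolerance. Genes under a mean of 8.08 (callosum) or 8.52 (culture) have no adjusted p.

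The planned tests on counts could not be used, because fitted means carry no replicate spread, so calls are DESeq2's Wald tests as deposited. CPM were computed from the fitted means, 95% intervals from the deposited standard errors, and the difference between systems by a two-sided z test. The z test was tried on changes simulated from normal distributions with those same standard errors. That trial could not check the errors or the normal reference. Exon lengths and overlaps came from GENCODE M21 (GRCm38), with values for 19836 and 17427 of the tested genes. Python 3.11.15 and scipy 1.17.1 were used. The members and lists were chosen with earlier results of these data known. All 33 members are named, and of each other list up to 3 with the smallest p in either table and its defining genes, with Mff, Tmem189, Selenoi, Rxra, Rxrb, Pparg, C1qa, C1qb and Itgam added after their values were seen. Alternatives were a Student reference, library-size scaling, centring, filters on low means, other thresholds and a minimum fold of 1.5.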

Additional observations from a re-analysis of the deposited data

Results flagged for a closer look

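For 12 genes the change between genotypes differed between culture and callosum by a z test of the difference itself (adjusted p under 0.05 over 16601 genes). The culture change minus the callosum change was -3.43 log2 units for Acox2, -2.00 for Abcd2, -1.68 for Hacl1, -1.53 for Abcd3, -1.53 for Pex7 and -1.37 for Phyh. It was -1.31 for Abcd4, -0.94 for Hsd17b4, -0.90 for Acox3, -0.82 for Cat, -0.79 for Acaa1a and -0.70 for Mpv17. Single libraries could not be examined for outlying values, since the columns carry no replicate spread.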

How the results depend on the processing

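In culture, 18 of the 33 genes passed, and 0 did with a Student reference for the score (0 of all 17503 genes), which is the 1 alternative that moved this count by over 1.5 times. Under the other alternatives between 15 and 19 passed. With scaling by library size alone Scp2 was lost, and Pex5 and Far1 passed as higher. The split over all tested genes then went from 2336 higher and 2667 lower to 3054 and 2296. The difference between systems held between 11 and 13 genes against 12, and the callosum count stayed at 0 under all 8 alternatives. For that difference the Student reference took the residual degrees of freedom of both systems together, 6 of callosum and 4 of culture. It is milder than the reference with 4 used for culture alone. The 11 genes it kept therefore do not show that the culture changes would pass the stricter one. The Student reference, the other thresholds and the minimum fold could not have raised the callosum count, since the smallest adjusted p there was 0.555 (DESeq2). No gene that passed changed direction under any of these alternatives, and none could have. Only scaling and centring alter a change, by at most 0.08 log2 units in culture. The smallest deposited change that passed there was -0.34 for Scp2. No paired analysis was possible because the library columns hold fitted means without replicate spread. For the same reason leaving out single replicates and refitting with another count tool were not run. Folds of genes with few reads, such as Acox2 and Acaa1b, have wide errors, and the filter at a mean normalized count of 50 removes both in each system.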

Other observations

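The nuclear receptors and coactivators that act on many peroxisomal genes were mixed in culture, where 4 of 8 fell and 1 rose. In callosum 0 of 8 passed, and 0 had an unadjusted p under 0.05 (DESeq2). Among all tested genes 15.2% fell and 13.3% rose in culture, and in callosum 2.32% and 8.08% met those 2 limits. Ppara, the receptor whose agonists drive peroxisome proliferation in rodent liver, went from 5.51 to 2.20 CPM in culture (log2 change -1.40 ± 0.30, adjusted p = 2.73e-05, authors' deposited table). Ppard (-0.46 ± 0.15), its partner receptor Rxra (-0.56 ± 0.18) and the coactivator Ppargc1a (-0.63 ± 0.20) were lower too, by the authors' deposited table. Rxrg rose from 0.739 to 3.05 CPM (1.97 ± 0.37, adjusted p = 1.09e-06, authors' deposited table). Pparg and Rxrb did not pass (0.48 ± 0.41 and 0.18 ± 0.15, authors' deposited table).

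Factors that divide and tether peroxisomes also went both ways in culture. Gdap1, a fission factor of mitochondria and peroxisomes, went from 9.68 to 74.6 CPM (2.87 ± 0.22, adjusted p = 7e-36, authors' deposited table). Acbd5, which ties peroxisomes to the endoplasmic reticulum, went from 130.6 to 55.2 CPM (-1.32 ± 0.14, adjusted p = 2.01e-18, authors' deposited table). Mff, a receptor for the fission machinery, fell by 0.46 ± 0.13, and Pex5l, a relative of Pex5, by 0.84 ± 0.23 in the authors' deposited table. For the fission motor gene Dnm1l the authors' deposited table gives 0.24 ± 0.15, which did not pass.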
